A study of Mus musculus with 3 samples.

Results

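The genes described here were 10 core genes of the Notch pathway: the receptors Notch1, Notch2, Notch3 and Notch4, the ligands Dll1, Dll4, Jag1 and Jag2, and the target genes Hey1 and Hey2. They were found by symbol among the array's probe sets, taking only probe sets annotated to exactly 1 gene. Each of the 10 had 1 such probe set, out of 19938 genes measured in this way. For Notch4, 6 further probe sets were annotated to it together with another gene and were left out.

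Expression was measured in endothelial cells sorted from mouse kidneys at embryonic day 15.5 (E15.5). All samples came from CD-1 mice that carried the transgene Tg(TIE2GFP)287Sato, in which green fluorescent protein (GFP) is driven by the promoter of Tek, which codes for Tie2, a receptor of the angiopoietins. Each sample was a pool of 4 to 5 embryonic kidneys, dissociated with trypsin and sorted for GFP, and its RNA was amplified in 1 round and hybridized to 1 Affymetrix Mouse Gene ST array. The 3 samples formed 1 untreated group with no second sample type. The questions were therefore which of these genes exceeded the level of the study's low-signal filter and how far the 3 pools differed. The sort selects cells by activity of the Tie2 promoter, which is also active in some blood cells, and cells of every vessel type were collected together. Since each array measured a mixture of cells, fewer cells of a type and less RNA per cell cannot be told apart. Nothing in the labels ties the pools to separate litters, and p-values therefore cover no more than the spread among these 3 arrays, which may be technical.

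Notch receptors are single-pass membrane proteins that are activated by Delta and Jagged ligands on a neighbouring cell. Ligand binding allows cleavage of the receptor by an ADAM protease and then by the gamma-secretase complex, and the freed intracellular domain joins the DNA-binding protein RBPJ to switch on target genes such as the Hey and Hes repressors. In blood vessels this pathway is known for restraining tip cell formation during sprouting and for setting arterial identity.

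Of the 10 genes, Hey1 and Notch4 lay above the filter level and Notch2, Dll1, Jag2 and Hey2 lay below it, while Notch1, Notch3, Dll4 and Jag1 passed in neither direction. The level was a signal of 100, or 6.64 on the log2 scale, and every statement that a gene lay above or below it refers to limma's moderated one-sided tests of the mean of 3 arrays, with p-values adjusted over all probe sets by the Benjamini-Hochberg method. The 2 of 10 above the level compare with 41.6% of all genes, and the 4 of 10 below it with 41.6% of all genes. The study's own filter was a count without a test, a raw signal of 100 or more in 3 samples. A gene not called here can therefore still meet that count. In each of the 3 arrays, 4 of the 10 genes (Notch1, Notch3, Notch4 and Hey1) were over the level, beside 47.3% of all genes. In each array 5 were under it (Notch2, Dll1, Jag1, Jag2 and Hey2), beside 9137 of all 19938 genes. The median of the 10 means was 6.65 log2, against 6.67 log2 over all genes. As a second reference, 1179 olfactory and vomeronasal receptor genes, taken here as mostly not expressed, had a 95th percentile of 6.41 log2. Of them 21 lay above the level and 1067 below. Probe sets differ in affinity, so a distance from the level describes 1 gene and no gene's level was tested against that of another.

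Many probe sets of the deposited table held exactly equal values in different arrays. This was so in at least 2 of the 3 arrays for 55.9% of all probe sets, and arrays 1 and 2 were equal in 50.6%. Notch2, Dll1 and Jag2 were equal in all 3 arrays, and their calls rest on a measured spread of 0. Notch3, Notch4, Dll4 and Hey2 were equal in arrays 1 and 2, and Jag1 in arrays 2 and 3. The spreads of these genes rest on 2 different values. The test was therefore repeated with 1 spread pooled over all probe sets (SD 0.49 log2), which called 4 of the 10 genes above the level, namely Notch1, Notch4, Dll4 and Hey1, beside 36.0% of all genes. It called only Hey2 below the level, beside 32.5% of all genes. The pooled spread includes the 19.7% of probe sets with 3 equal values and was taken as known. Its p-values therefore do not measure the spread of a single gene, and they are too small for genes that vary more. Notch4, Hey1 and Hey2 were called by both forms of the test.

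**Figure D1:**
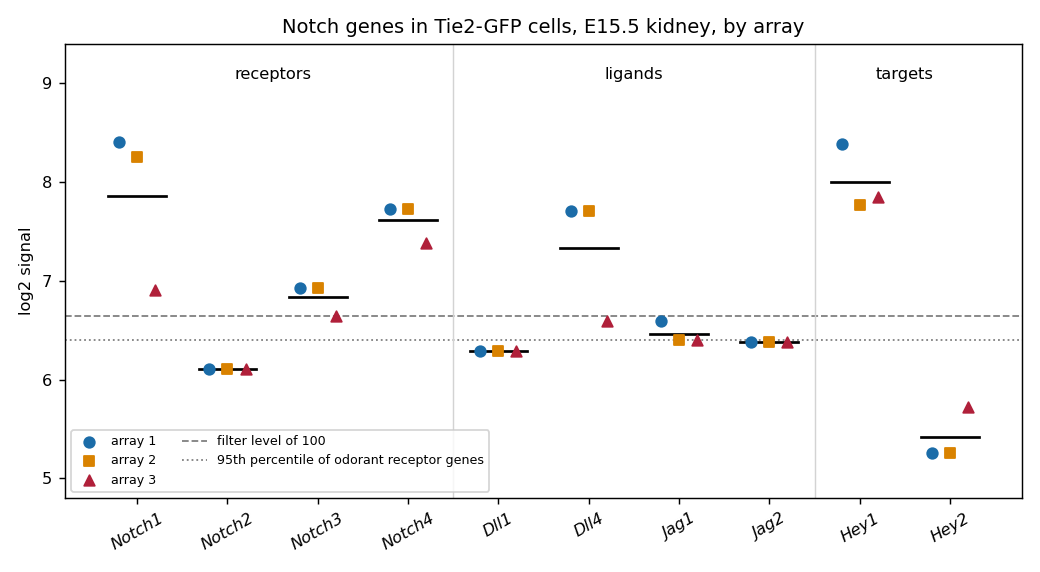
Log2 signal of each gene (vertical axis) in array 1 (circles), array 2 (squares) and array 3 (triangles), with the mean as a black bar, ordered as receptors, ligands and targets. The dashed line is the filter level at 6.64 and the dotted line the 95th percentile of olfactory and vomeronasal receptor genes at 6.41, and Notch1 and Dll4 show the widest gaps between array 3 and the others.

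Among the receptors, Notch1, which is essential for embryonic vessel remodelling, had log2 signals of 8.41, 8.25 and 6.91 in arrays 1, 2 and 3. All 3 values were over the level, with array 3 well under the others. Its mean of 7.86 ± 0.83 (SD, n = 3) was 2.32-fold the level. With its own wide spread the moderated test gave an adjusted p of 0.112 from limma, whereas the pooled spread gave an adjusted p of 4.12e-05. The spread of Notch1 was larger than that of 97.7% of all genes.

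Notch4, a receptor found mainly in endothelium, read 7.73, 7.73 and 7.39 in arrays 1, 2 and 3. The values of arrays 1 and 2 were equal, and all 3 were over the level. The mean of 7.61 ± 0.20 was 1.96-fold the level (95% confidence interval 1.51 to 2.55; limma adjusted p = 0.0109). The call was lost without replicate 1 (adjusted p = 0.0889) and without replicate 2 (adjusted p = 0.0912), fits with 2 arrays each. Since arrays 1 and 2 were equal, both fits used the same 2 values of Notch4 and form 1 check.

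Notch3, known as the receptor of smooth muscle cells and pericytes, read 6.93, 6.93 and 6.65 in arrays 1, 2 and 3. It sat just over the level in each array, at a mean of 6.84 ± 0.16, and passed with neither spread (limma adjusted p = 0.163 for above). Against the receptor-gene reference as level it did pass (adjusted p = 0.0326). Of 9 markers of those mural cells 7 lay below the level and 1 above, but with the pooled spread 3 lay below and 0 above. Pdgfrb (5.87 log2) and Rgs5 (5.89) lay below with either spread and Cspg4 (6.17) only with the moderated one, all with equal values in the 3 arrays. The summed signal of the 9 mural markers was 765, 765 and 730 in arrays 1, 2 and 3, and the part of mural cells in the Notch3 signal was not tested.

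Notch2, a receptor with a known role in the nephron, read 6.10 log2 in each of the 3 arrays. It was under the receptor-gene reference as well as under the level (limma adjusted p = 5.24e-05). With the pooled spread the adjusted p was 0.0721, so that call rests on the equal values.

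The ligand Dll4, the Delta ligand of arteries and tip cells, had signals of 7.71, 7.71 and 6.59 in arrays 1, 2 and 3. Arrays 1 and 2 were over the level and array 3 just under it. The mean of 7.34 ± 0.65 was 1.62-fold the level and did not pass (limma adjusted p = 0.190), while the pooled spread gave an adjusted p of 0.0223. When the spread was pooled only over probe sets with 3 different values (SD 0.70 log2), a setting added after the data were seen, the adjusted p was 0.133.

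The other ligands gave low signals. Jag1, a ligand of endothelial and smooth muscle cells, read 6.60, 6.40 and 6.40 in arrays 1, 2 and 3, all under the level, and did not pass at a mean of 6.47 ± 0.11 (limma adjusted p = 0.0868 for below). Without replicate 1 it did (limma adjusted p = 0.0175), but that fit used 2 equal values. With the pooled spread the same fit did not pass (adjusted p = 0.518). Jag2, a second Jagged ligand, read 6.38 in every array and lay below the level (limma adjusted p = 0.000212; 0.384 with the pooled spread). Dll1, a Delta ligand with known roles in somites and arteries, read 6.29 in every array and lay below it as well (limma adjusted p = 0.000114; 0.236 with the pooled spread). Each of these 3 genes was within 0.36 log2 units of the level, and none of them was called with the pooled spread.

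The target genes Hey1 and Hey2 code for related repressors that are known to act together in artery formation, and they lay on opposite sides of the level. Hey1 read 8.38, 7.77 and 7.85 in arrays 1, 2 and 3, over the level in every array. Its mean of 8.0 ± 0.33 was 2.56-fold the level (95% confidence interval 1.64 to 4.00; limma adjusted p = 0.0161), with a percentile of 79.2 among all genes. The call was kept without replicate 1 (adjusted p = 0.0166) and lost without replicate 2 (adjusted p = 0.0897).

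Hey2 read 5.26, 5.26 and 5.72 in arrays 1, 2 and 3, under the level in every array. Its mean of 5.41 ± 0.27 was 0.43-fold the level (95% confidence interval 0.30 to 0.61; limma adjusted p = 0.0113) and had a percentile of 18.5 among all genes. The call was lost without replicate 1 (adjusted p = 0.0875) and without replicate 2 (adjusted p = 0.0872), and held with the pooled spread (adjusted p = 2.99e-05). Since arrays 1 and 2 were equal, the 2 fits without an array used the same values of Hey2 and form 1 check.

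**Figure D2:**
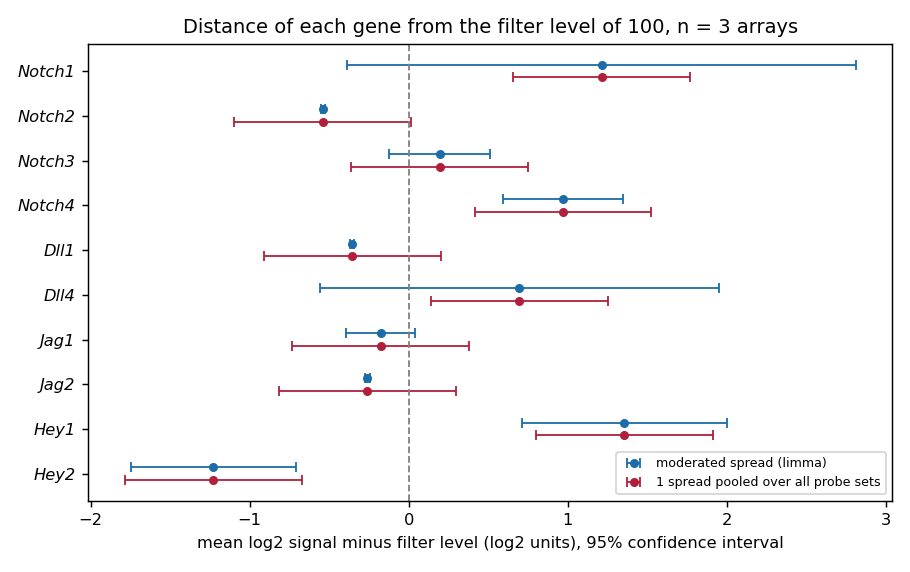
Mean log2 signal minus the filter level (horizontal axis, log2 units) for each gene with its 95% confidence interval, n = 3 arrays, from the moderated spread (blue) and from 1 spread pooled over all probe sets (red). Notch4 and Hey1 lie to the right of 0 and Hey2 to the left with both intervals, whereas the moderated intervals of Notch2, Dll1 and Jag2 are narrow because their 3 values were equal.

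The promoters of the genes were read from RefSeq (GRCm38.p6) as the 250 bases before each annotated start. Of the 10 genes, 9 had such a window, with 10 windows in all because Dll1 had 2. Hey1 had none, so its promoter was not searched. They were searched on both strands for GTGGGAA, the core letters bound by RBPJ, for the E-box CACGTG and for the ETS motif CCGGAAGT. The RBPJ letters were present in 1 of the 10 windows, that of Hey2, against 5.42% of 32851 windows. No window held the E-box or the ETS motif, which were in 6.02% and 2.88% of all windows. After that result was seen the search was widened to the 300 bases from 250 before to 50 after the start, and it found 1 further match, also in Hey2, read as GTGGGAA and beginning 4 bases before the start. In windows of that length, 6.38% of all held the RBPJ letters. The 4 windows below are those of Hey2, which carries the match, and of Notch1, Dll4 and Notch4, which have none. These 3 genes had lower signals in array 3 than in both other arrays. So did Notch3, whose window, not shown, has no match either. A link between the RBPJ letters and the array 3 signals was not tested. Capitals mark the RBPJ letters, which are read here as TTCCCAC from 207 bases before the start. The positions are chr10:30842784-30843033 (minus strand) for Hey2, chr2:26503823-26504072 (minus) for Notch1, chr2:119325534-119325783 (plus) for Dll4 and chr17:34564045-34564294 (plus) for Notch4.
Hey2: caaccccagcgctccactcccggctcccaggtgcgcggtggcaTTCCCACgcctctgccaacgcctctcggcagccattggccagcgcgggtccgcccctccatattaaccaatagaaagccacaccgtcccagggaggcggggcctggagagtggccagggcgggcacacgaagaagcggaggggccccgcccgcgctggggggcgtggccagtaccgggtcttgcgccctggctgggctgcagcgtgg
Notch1: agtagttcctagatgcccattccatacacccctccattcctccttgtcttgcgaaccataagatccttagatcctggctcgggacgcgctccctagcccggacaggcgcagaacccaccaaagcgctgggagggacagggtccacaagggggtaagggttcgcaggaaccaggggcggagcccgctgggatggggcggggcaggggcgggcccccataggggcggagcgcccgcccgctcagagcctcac
Dll4: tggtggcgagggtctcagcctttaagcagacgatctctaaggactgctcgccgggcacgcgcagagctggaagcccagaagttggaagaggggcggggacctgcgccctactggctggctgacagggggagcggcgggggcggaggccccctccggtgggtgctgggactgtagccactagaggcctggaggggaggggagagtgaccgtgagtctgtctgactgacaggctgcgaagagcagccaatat
Notch4: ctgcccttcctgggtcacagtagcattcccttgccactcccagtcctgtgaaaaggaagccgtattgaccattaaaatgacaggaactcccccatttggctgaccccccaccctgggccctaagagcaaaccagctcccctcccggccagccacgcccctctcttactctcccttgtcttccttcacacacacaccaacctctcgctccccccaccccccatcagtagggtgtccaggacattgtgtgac

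GC content of the 10 windows ran from 56.0% to 87.2%, and all 10 were over the median of all windows, 52.4%. The Notch4 window held 4 CpG pairs, against a median of 6 over all windows, and that of Hey2 held 22. These matches describe letters in annotated windows, and the arrays did not measure binding.

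Among the 10 genes the 3 arrays differed most in Notch1 and Dll4. Array 3 was under both other arrays for 4 of the 10 genes, Notch1, Notch3, Notch4 and Dll4, beside 28.2% of all genes. Relative to the mean of arrays 1 and 2, array 3 differed by -1.43 log2 units for Notch1, by -1.12 for Dll4, by -0.34 for Notch4 and by -0.28 for Notch3. Hey2 was the only one of the 10 that was highest in array 3, by 0.46 log2 units. Array 3 was highest for 7562 of all 19938 genes. Of the 1179 olfactory and vomeronasal receptor genes, 917 were higher in array 3 and 41 lower. Their median difference was 0.30 log2 units. The SD over all probe sets was 2.08, 2.06 and 1.84 log2 in arrays 1, 2 and 3. The part of this narrower range of array 3 in the Hey2 difference was not tested. For Hey1 the difference was -0.23 in the deposited values and 0.09 after quantile normalization, so its direction depended on the scaling. After that normalization the difference was -1.28 for Notch1, -1.06 for Dll4, -0.14 for Notch4, -0.28 for Notch3 and 0.26 for Hey2. Among 3 arrays of 1 group no test between arrays was possible.

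The endothelial markers differed in the same array. The summed signal of 18 pan-endothelial markers was 23671, 21031 and 12306 in arrays 1, 2 and 3, and that of the 10 Notch genes was 1583, 1421 and 1082. All 18 pan-endothelial markers were lower in array 3 than in the mean of the other arrays, with a median difference of -1.0 log2 units (-0.66 after quantile normalization), against -0.16 for the 10 Notch genes and 0.00 for all genes. The summed signal of 16 macrophage markers was 1854, 4328 and 7143 in arrays 1, 2 and 3, and 14 of the 16 were higher in array 3, with a median difference of 0.90. By the level test 2 of the 16 lay above and 1 below (9 and 1 with the pooled spread). Of these markers Csf1r read 6.45, 6.98 and 7.41, Adgre1 5.62, 6.74 and 6.42, and C1qa 6.40, 6.88 and 6.42 in arrays 1, 2 and 3. Array 3 differed outside these lists too. The summed signal of all 19938 genes was 5635242, 5387380 and 4673130 in arrays 1, 2 and 3. Of 60 other genes of the Notch pathway, 31 were lower in array 3 and 8 higher, with differences from -1.82 to 0.73 log2 units. The parts of the cell mixture and of this array-wide difference in the array 3 values of Notch1 and Dll4 were not tested.

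**Figure D3:**
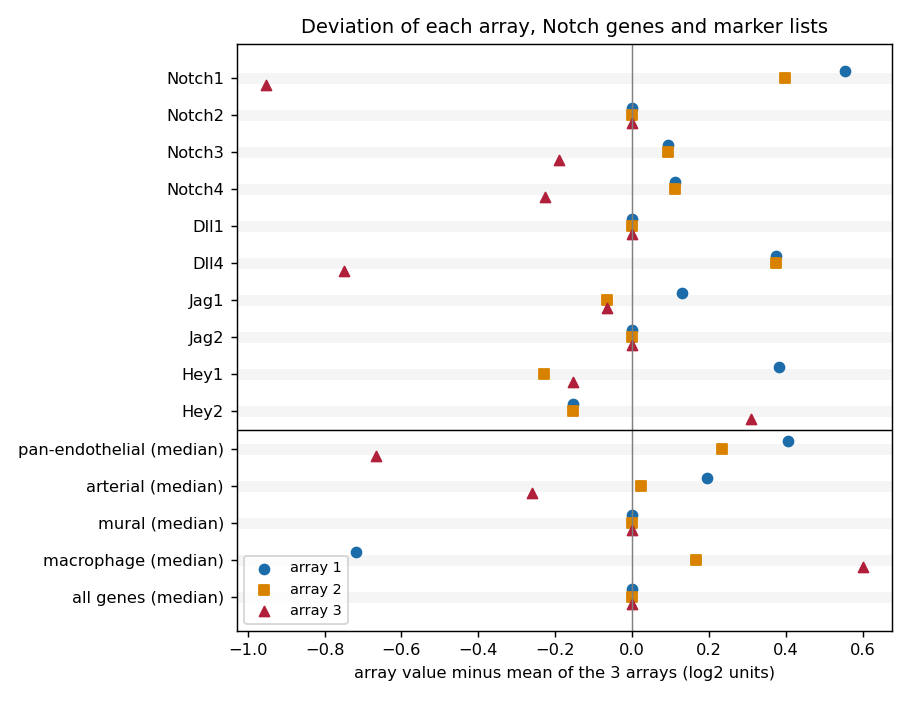
Value of each array minus the mean of the 3 arrays (horizontal axis, log2 units) for the 10 Notch genes and, under the line, the median over each marker list and over all genes, with array 1 as circles, array 2 as squares and array 3 as triangles. Array 3 lies to the left for Notch1, Dll4 and the pan-endothelial list, and to the right for Hey2 and the macrophage list.

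The sorted cells carried the markers of their label. Of the 18 pan-endothelial genes 15 lay above the level and none below, and with the pooled spread all 18 lay above it. All marker counts stand beside 41.6% of all genes above and 41.6% below (36.0% and 32.5% with the pooled spread). Tek, whose promoter drives the transgene, read 11.12, 10.97 and 10.13 in arrays 1, 2 and 3 (mean 10.74 ± 0.53). The adhesion gene Pecam1 averaged 10.09 ± 0.60, the cadherin gene Cdh5 11.08 ± 0.59 and the VEGF receptor gene Kdr 9.89 ± 0.96 log2. Of 8 nephron progenitor markers 5 lay above the level and 2 below (4 and 1 with the pooled spread), with Six2 at 7.37 ± 0.12 and Cited1 at 7.28 ± 0.00, both above, and Eya1 at 6.27 ± 0.00, below. Of 8 renal vesicle markers 3 lay above and 1 below with either spread, with Lhx1 at 6.05 ± 0.00 (below), Pax8 at 6.43 ± 0.17 (neither) and Wnt4, whose 2 probe sets averaged 6.30 (neither) and 8.03 (above). Of 8 ureteric bud markers 3 lay above and 3 below (1 and 0 with the pooled spread), with Ret at 6.15 ± 0.20 and Gata3 at 6.27 ± 0.06, both below, and Wnt11 at 6.49 ± 0.16, neither. Of 4 podocyte markers 1 lay above and 2 below with either spread, with Nphs1 at 6.46 ± 0.23 (neither), Synpo at 5.99 ± 0.10 (below) and Podxl, also an endothelial gene, at 8.04 ± 0.18 (above).

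Of 8 stromal markers 6 lay above and 1 below (3 and 1 with the pooled spread), with Foxd1 at 7.87 ± 0.54 and Meis1 at 6.97 ± 0.13, both above, and Tbx18 at 4.99 ± 0.22, below. Of 8 erythroid markers 4 lay above and 3 below (2 and 3 with the pooled spread), with Klf1 at 5.71 ± 0.00 (below), Alas2 at 7.13 ± 0.32 (neither) and Slc4a1 at 6.77 ± 0.01 (above). Of 4 neural crest and glial markers 1 lay above and 2 below (1 and 1 with the pooled spread), with Sox10 at 7.30 ± 0.12 (above) and Erbb3 at 5.85 ± 0.01 (below), besides Ret. Notch2, Jag1 and Lfng are also known from the developing nephron, and the part of these cells in their signals was not tested.

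The other genes of the pathway were mostly above the level. Of 63 genes listed by role, 60 had a probe set, and 42 lay above the level, 10 below and 8 in neither direction (35 above and 1 below with the pooled spread). All genes gave 41.6% above and 41.6% below (36.0% and 32.5% with the pooled spread), and the 10 receptors, ligands and Hey genes 2 above and 4 below (4 and 1 with the pooled spread). Levels across lists are not compared by a test.

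The other ligands were split. The atypical ligand gene Dlk2 (7.38 ± 0.00) and the growth regulator Dlk1 (7.06 ± 0.00) lay above the level, and Dll3 (6.03 ± 0.00), known from somite formation, and Dner (6.18 ± 0.00), a neuronal ligand, lay below it. All 4 had equal values in the 3 arrays, and with the pooled spread Dlk2 and Dll3 alone were called.

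Genes for enzymes that glycosylate the receptor lay partly above the level, 2 of 5, with 1 below (3 and 0 with the pooled spread). Pofut1, which adds fucose, averaged 7.34 ± 0.00 and Poglut1, which adds glucose, 7.87 ± 0.23 (both above), while the Fringe gene Lfng averaged 6.09 ± 0.00 (below, but not with the pooled spread, adjusted p = 0.0647). Of the 9 measured genes for the cleaving proteases 7 lay above the level and 0 below (5 and 0 with the pooled spread). Adam17, a shedding protease, averaged 8.58 ± 0.30 and the proprotein convertase gene Furin 6.86 ± 0.00, both above, although Furin was not called with the pooled spread (adjusted p = 0.544). Adam10, the main protease of the ligand-induced step, read 9.65, 9.44 and 7.72 in arrays 1, 2 and 3, over the level in each, and did not pass (limma adjusted p = 0.0541; 2.37e-15 with the pooled spread). The SD of Adam10 was 1.06, well over the pooled one.

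Genes for trafficking and turnover had 10 of 16 above the level and 5 below (7 and 0 with the pooled spread). The ubiquitin ligase gene Mib1, needed for ligand endocytosis, averaged 8.93 ± 0.59, its relative Mib2 6.84 ± 0.00 and Neurl1a 7.12 ± 0.00, all above, although Mib2 and Neurl1a were not called with the pooled spread. All 10 nuclear activators lay above the level (8 with the pooled spread). For Rbpj, the DNA-binding partner of the cleaved receptor, this rests on 1 of 2 probe sets that disagreed. That probe set read 8.93, 8.93 and 7.66 in arrays 1, 2 and 3 (limma adjusted p = 0.0398 for above), while the other read 5.22, 5.45 and 5.87 and lay below the level (adjusted p = 0.0197), and the mean of both, 7.01 ± 0.22, did not pass when tested (adjusted p = 0.0793). The call of Maml2 also rests on 1 of 2 probe sets, which read 7.34 in each array. Its other probe set did not pass (limma adjusted p = 0.212), nor did the mean of both (adjusted p = 0.0612). The Rbpj relative Rbpjl averaged 6.75 ± 0.00 (not called with the pooled spread) and the coactivator gene Maml1 7.38 ± 0.00. Of 11 measured corepressor genes 8 lay above the level and 1 below (9 and 0 with the pooled spread). Those above included Spen (7.89 ± 0.02) and the histone deacetylase genes Hdac1 (10.17 ± 0.93) and Hdac2 (11.93 ± 0.07), which act in many complexes beside this one.

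Of 5 further target genes 3 lay above the level and 1 below (2 and 0 with the pooled spread). Hes1, a repressor induced by Notch in many tissues, averaged 7.71 ± 0.00 and Hes5 7.95 ± 0.05, both above the level with either spread. The feedback inhibitor Nrarp averaged 7.16 ± 0.03 and lay above it, but not with the pooled spread. Hes7 read 6.84, 6.84 and 7.56 in arrays 1, 2 and 3 and passed in neither direction. Heyl, the third Hey gene, averaged 6.54 ± 0.00 and lay below the level, but not with the pooled spread.

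**Figure D4:**
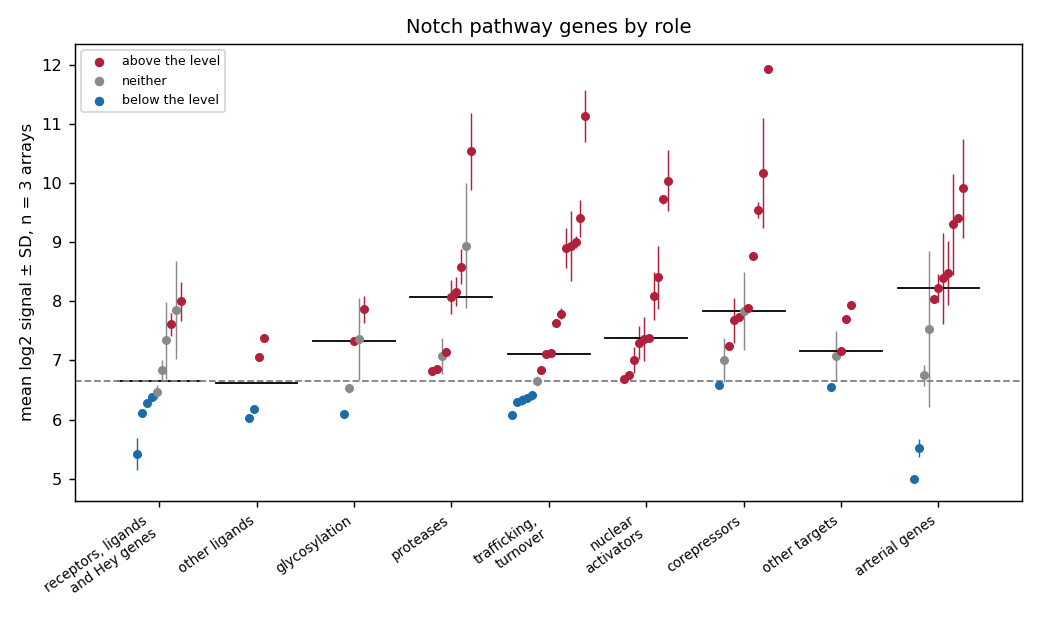
Mean log2 signal ± SD over 3 arrays (vertical axis) for each measured gene of the pathway lists and for arterial genes, coloured by call (red above, blue below, grey neither), with the list median as a black line and the filter level as a dashed line. The nuclear activators are all red, Rbpj and Maml2 each by 1 of 2 probe sets. The receptors, ligands and Hey genes include 2 red and 4 blue points.

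Endothelial subtype lists were read beside the Notch genes, since Dll4, Hey1 and Hey2 are known from arteries. The shares over all genes, beside each list, were 41.6% above and 41.6% below (36.0% and 32.5% with the pooled spread). Of 11 arterial genes 7 lay above the level and 2 below (8 and 2 with the pooled spread). The arterial ephrin gene Efnb2 read 10.54, 10.23 and 8.96 in arrays 1, 2 and 3 and the connexin gene Gja4 8.52, 9.09 and 7.57, both above. The connexin gene Gja5 read 8.88, 7.45 and 6.26 and passed in neither direction, though it lay above with the pooled spread (adjusted p = 0.00309). The median difference of array 3 from the other arrays was -0.39 for the arterial list. Of 5 venous genes 3 lay above and 0 below (5 and 0 with the pooled spread), with the venous regulator Nr2f2 at 9.01 ± 0.00, Ephb4 at 8.25 ± 0.35 (above) and Nrp2 at 8.30 ± 0.75 (neither, above with the pooled spread). Of 5 tip cell genes 4 lay above and 1 below (4 and 0 with the pooled spread), with Esm1 at 8.56 ± 0.30, Apln at 7.49 ± 0.00 and Kcne3 at 7.99 ± 0.56, all above.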

How the data were processed

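The deposited table held log2 values of 35557 probe sets for 3 arrays of sorted E15.5 kidney endothelial cells. According to the submitters' processing notes Affymetrix Expression Console was used (no version is named). The authors' methods name RMA normalization in GeneSpring for their own analysis. Whether the deposited table was made in the same way, and the array's genome build, are not stated in the sources used here. As level served the low-signal filter of the authors' methods, a raw signal of 100. Every statistic was computed from the deposited log2 values as they stand.

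Gene names came from the platform annotation, in which 21789 probe sets had 1 symbol and 1621 had several (23410 in all), leaving 12147 unnamed here. Symbols were updated through a RefSeq gene table of GRCm38.p6, used for names and promoter windows only, where 21698 of the 21789 matched, and a gene's value was the mean over its probe sets (19938 genes). Listed genes without a probe set of 1 symbol were not analysed here. The level test used limma 3.58.1 in R 4.3.3 with an intercept-only fit, eBayes and a threshold of 0.05. It was tried on simulated data, which held no equal values across arrays. That trial could not check calls that rest on equal values in 3 arrays (Notch2, Dll1 and Jag2) or in 2 (Notch4 and Hey2). A gene lay above the level if any of its probe sets did, and below only if all did. Summaries, promoter searches and plots were made in Python 3.11.15 (pandas 2.3.3, numpy 2.4.6, matplotlib 3.10.9). The number of arrays limits the precision.

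The genes and lists were chosen with earlier results of these data known. Named genes were the 10 members with every array's value, Tek, all measured further targets and, from every other list, its first 3 measured genes. Dner and Maml2 were named after their values were seen. The alternatives were levels of 50 and 200, the receptor-gene reference as level, centring, quantile normalization, pooled spreads, eBayes with trend, gene values, a filter on dim probe sets and leaving out each array. The study's between-group tests need other sample types and were not run.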

Additional observations from a re-analysis of the deposited data

How the results depend on the processing

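No paired analysis was possible because the series holds 1 group. Centring, quantile normalization, eBayes with trend and testing gene values kept the counts of the 10 Notch genes at 2 above and 4 below. The level mattered most. At a level of 50, 9 of the 10 genes lay above and 0 below. All genes gave 14235 above and 2613 below, and pathway genes 60 above and 0 below. The mean of Notch2 was then 0.46, of Dll1 0.64, of Jag1 0.82 and of Jag2 0.74 log2 units over the level. At a level of 200, 0 of the 10 genes lay above and 6 below, and all genes gave 3221 above and 13280 below. Pathway genes gave 13 above and 28 below. The differences from that level were -0.81 for Notch3, -0.030 for Notch4 and -0.31 for Dll4. With the receptor-gene reference as level 3 of the 10 genes lay above, Notch3 added (limma adjusted p = 0.0326), and 4 below. All genes gave 9819 above and 6784 below. At that level 48 pathway genes lay above and 6 below, and Jag1 stood 0.061 over it.

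With 1 pooled spread 4 of the 10 genes lay above and 1 below, and pathway genes gave 35 above and 1 below. With the spread pooled over probe sets with 3 different values, added after the data were seen, 3 of the 10 lay above and 1 below. All genes then gave 5936 above and 5135 below, and pathway genes 28 above and 0 below. Without replicate 1 or without replicate 2, the moderated test gave 0 to 1 of the 10 above and 3 to 4 below, 5051 to 5531 of all genes above and 5163 to 5338 below, and 27 to 28 pathway genes above and 7 to 8 below. Without replicate 3 it had no usable spread, because arrays 1 and 2 hold equal values in 50.6% of probe sets. Leaving out each array was therefore repeated with the pooled spread, after the data were seen, and gave 3 to 4 of the 10 above and 1 below, 6328 to 6727 of all genes above and 5600 to 6116 below, and 28 to 31 pathway genes above and 0 below. The filter on dim probe sets could give no calls below. Each call of a gene with 3 equal values (Notch2, Dll1 and Jag2) rests on the moderated spread, and the cause of the equal values was not tested.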
